A study of Equus caballus with 13 samples.

Results

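The SLC25 family of mitochondrial carriers was examined in RNA kinetics of horse (Equus caballus) cartilage cells. The members were all genes whose symbol begins with SLC25A followed by a number, a rule that uses no measured value. It gave 36 genes among the 11331 genes of both tables together. Of these, 35 were listed in the table comparing old with young cells and 36 in the table comparing sexes, SLC25A21 being listed in the latter only. The wild-type chondrocytes, released from cartilage and cultured for 2 days, came from old females (5 samples), young females (5 samples) and young males (3 samples), with no ages in years. Every group received 4-thiouridine (4sU), a uridine analogue built into new RNA, for 4 h, and there was no unlabelled group. The labels do not say whether samples of a group came from separate animals. For each gene and group the authors gave 1 synthesis rate and 1 half-life, from the same 5 young female samples in both tables, so no value here has a replicate error and no difference could be tested.

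SLC25 proteins are encoded in the nucleus, made in the cytosol and inserted mostly into the inner mitochondrial membrane, where each exchanges or imports a set of substrates: nucleotides, phosphate, carboxylates, amino acids, cofactors or metal ions. They connect glycolysis and the cytosol with the respiratory chain. Chondrocytes live in a poorly oxygenated tissue and make much of their ATP by glycolysis, so that carriers of the malate-aspartate shuttle and of ADP and ATP link their cytosolic redox state and energy supply to the mitochondria.

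Half-lives are given in hours, a unit read from the 4 h labelling and from the ceiling of 69.3 h in each table, and synthesis rates in arbitrary units. Whether the rates were scaled to gene length is not given in the sources used here, so they are compared between groups and not between genes. The implied level is the product of synthesis rate and half-life, over ln 2, which presumes a constant RNA level during labelling. Its log2 ratio is by construction the sum of the other 2 log2 ratios. None of the 36 genes reached the ceiling. The repeat estimate of the same young female samples differed by less than 5% in half-life for 29 of the 35 members listed in both tables, compared with 87.8% of all shared genes. The widest gap was that of SLC25A25, listed at 0.882 h in one table and 1.08 h in the other. The 13 samples carry 12 batch labels, with a young female and a young male sample sharing label 10, so that batch and group cannot be told apart.

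Most SLC25 transcripts had half-lives under the labelling time, as did most genes in female but not male cells, and a minority were stable. Under 4 h lay 22 of 35 members (62.9%) and 53.3% of all genes in young female cells of the age table. In young male cells it was 19 of 36 members (52.8%) and 45.3% of all genes. The members had a median of 3.00 h in young female cells of the age table (interquartile range 1.79 to 6.95 h), 3.21 h in old female cells and 3.57 h in young male cells. For all genes the medians were 3.64, 3.43 and 4.63 h. In 19 of the 36 genes every listed half-life was below the labelling time of 4 h, and in 13 every one was above it. The remaining 4, SLC25A14, SLC25A16, SLC25A30 and SLC25A40, lay on both sides. The matching shares of all genes over every group were not computed. In single group values 45.3% to 55.2% of all genes were under 4 h, so these counts are not read as particular to the carriers. The members' order was similar in all groups: across the 35 genes, half-lives in old female and young male cells, which share no sample, had a Spearman correlation of 0.94 (Pearson 0.95 on the log scale), a description across genes without a p-value. Across all 10974 shared genes the Spearman correlation was 0.97.

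**Figure D1:**
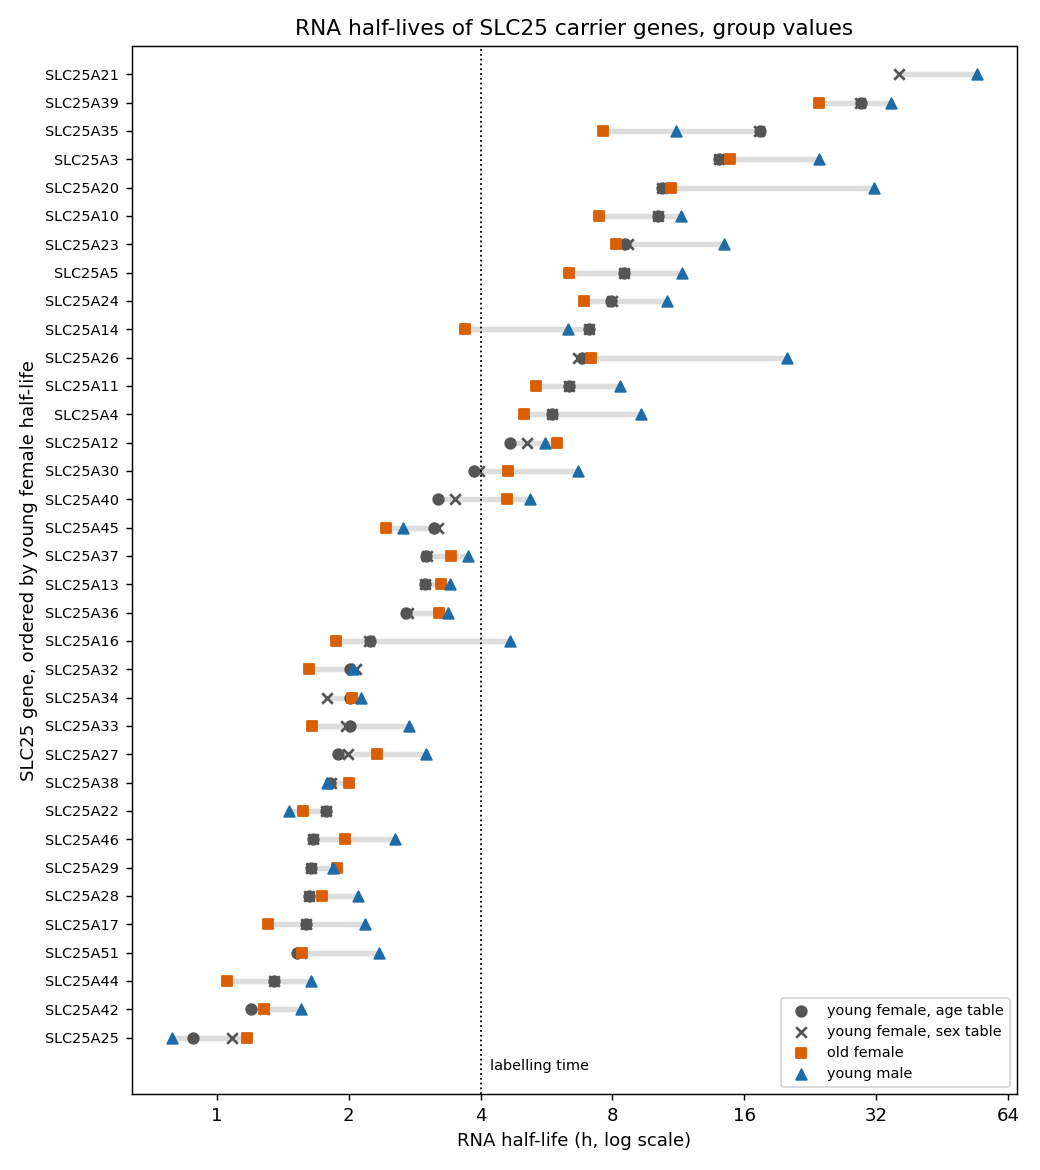
RNA half-life in hours (log axis) of 35 of the 36 SLC25 genes, ordered by its young female half-life, with 1 point per authors' group value, young female cells appearing once for each table, and a dotted line at the 4 h labelling time. Half-lives run from 0.791 h for SLC25A25 to 54.3 h for SLC25A21, both in young male cells, and the widest gaps to the young male triangle are those of SLC25A20 and SLC25A26.

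The carriers that exchange adenine nucleotides and phosphate for oxidative phosphorylation had half-lives above the labelling time. SLC25A3, the phosphate carrier, was listed at 14.03 h in young female, 14.8 h in old female and 23.7 h in young male cells. SLC25A5, an ADP/ATP carrier of many tissues, was listed at 8.50, 6.37 and 11.5 h in the same order. SLC25A4, the ADP/ATP carrier best known from heart and muscle, was listed at 5.83, 5.04 and 9.32 h. All 3 genes were longest-lived in young male cells, and the ADP/ATP carriers were shortest-lived in old cells. These are the directions of most genes. Relative to young female cells, half-lives were longer in male cells for 77.3% of all genes and longer in old cells for 36.5%.

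Carriers of carboxylates and of acylcarnitine also stood at the stable end, with 1 exception. SLC25A10, the dicarboxylate carrier, had 10.2 h in young female, 7.45 h in old female and 11.4 h in young male cells. SLC25A11, which exchanges oxoglutarate for malate in the malate-aspartate shuttle, had 6.38, 5.37 and 8.32 h. SLC25A20, which brings acylcarnitines in for fatty acid oxidation, had 10.4, 10.9 and 31.6 h. SLC25A21, an oxodicarboxylate carrier, had 36.1 h in young female against 54.3 h in young male cells, both beyond the 1 to 24 h taken as resolvable by 4 h of labelling. The exception was SLC25A34, with 2.02 h in young female, 2.04 h in old female and 2.13 h in young male cells. Its relative SLC25A35 had 17.4, 7.60 and 11.2 h, and the substrates of this pair are less well established.

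Carriers of cofactors and of nucleotides other than adenine nucleotide exchange were mostly short-lived. Of 9 such genes, 8 had half-lives under 4 h in young female cells (all genes 53.3%), and the median of the 9 was 2.02 h. SLC25A42, a coenzyme A carrier, had 1.20 h in young female, 1.28 h in old female and 1.55 h in young male cells. SLC25A51, which imports NAD, had 1.52, 1.57 and 2.35 h, and SLC25A17, a carrier of the peroxisomal membrane, had 1.60, 1.31 and 2.18 h. SLC25A32, linked to folate and flavin transport, had 2.02, 1.62 and 2.04 h. The stable gene of this class was SLC25A26, which imports S-adenosylmethionine, with 6.82, 7.16 and 20.03 h.

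Of the 8 carriers of amino acids and acylcarnitine, 6 had half-lives under 4 h in young female cells (all genes 53.3%), the others being SLC25A20 and SLC25A12 of the malate-aspartate shuttle. SLC25A44, a carrier of branched-chain amino acids, had 1.35 h in young female, 1.06 h in old female and 1.64 h in young male cells. SLC25A29, which carries basic amino acids, had 1.64, 1.88 and 1.84 h. SLC25A22, a glutamate carrier, had 1.77, 1.58 and 1.47 h. SLC25A38, the glycine carrier needed for haem synthesis, had 1.81, 2.00 and 1.79 h, and SLC25A45 had 3.14, 2.44 and 2.67 h. SLC25A46, a member of the outer membrane that acts in mitochondrial shape rather than transport, had 1.65, 1.96 and 2.56 h.

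In 3 sets of close relatives, half-lives differed between genes in every group by more than the widest group difference of any carrier (3.05-fold). Among the calcium-regulated carriers that exchange ATP-Mg for phosphate, SLC25A23 (8.57 h in young female, 8.13 h in old female and 14.4 h in young male cells) and SLC25A24 (7.96, 6.88 and 10.6 h) were stable. The third, SLC25A25, had 0.882 h in young female cells of the age table, 1.17 h in old female and 0.791 h in young male cells. SLC25A23 RNA was thus between 6.93 and 18.2 times longer-lived than that of SLC25A25 over the 4 group values. The highest fold rests on the male SLC25A25 half-life of 0.791 h, below the 1 h taken as resolvable, as was 0.882 h, and the repeat young female estimate gave 8.02 times against 9.71 in the age table. Of the 2 glutathione carriers, SLC25A39 had 29.5 h in young female, 23.7 h in old female and 34.6 h in young male cells and SLC25A40 had 3.19, 4.60 and 5.19 h, a difference of 5.15 to 9.23 times. The 5.15 is that of old cells, and in the other groups SLC25A39 lay beyond the 24 h taken as resolvable. SLC25A35 was 3.73 to 9.65 times longer-lived than SLC25A34.

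In other sets of relatives the gap was narrower but, with 1 exception, kept its direction in every group. SLC25A23 exceeded SLC25A24 by 1.08 to 1.35 times and SLC25A5 exceeded SLC25A4 by 1.24 to 1.46 times, less than the 1.66- and 1.60-fold longer half-lives of SLC25A23 and SLC25A4 in male than in young female cells. The mitoferrins import iron for haem and iron-sulphur clusters. SLC25A37, the form known from red cell precursors, had 3.00, 3.43 and 3.74 h and was 1.78 to 1.97 times longer-lived than SLC25A28, with 1.63, 1.73 and 2.10 h. The aspartate/glutamate carrier SLC25A12 (4.68, 5.97 and 5.62 h) was 1.57 to 1.84 times longer-lived than its relative SLC25A13 (2.98, 3.24 and 3.41 h). SLC25A36 exceeded SLC25A33, both pyrimidine nucleotide carriers, by 1.23 to 1.95 times, with 2.71, 3.21 and 3.38 h against 2.01, 1.65 and 2.75 h. SLC25A16 exceeded SLC25A42 by 1.46 to 3.00 times. The order of SLC25A14 and SLC25A30, relatives of the uncoupling proteins, was not kept: SLC25A14 was longer-lived in young female cells, by 1.84 times in the age table, and shorter-lived in old female (0.799 times) and young male cells (0.945 times).

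**Figure D2:**
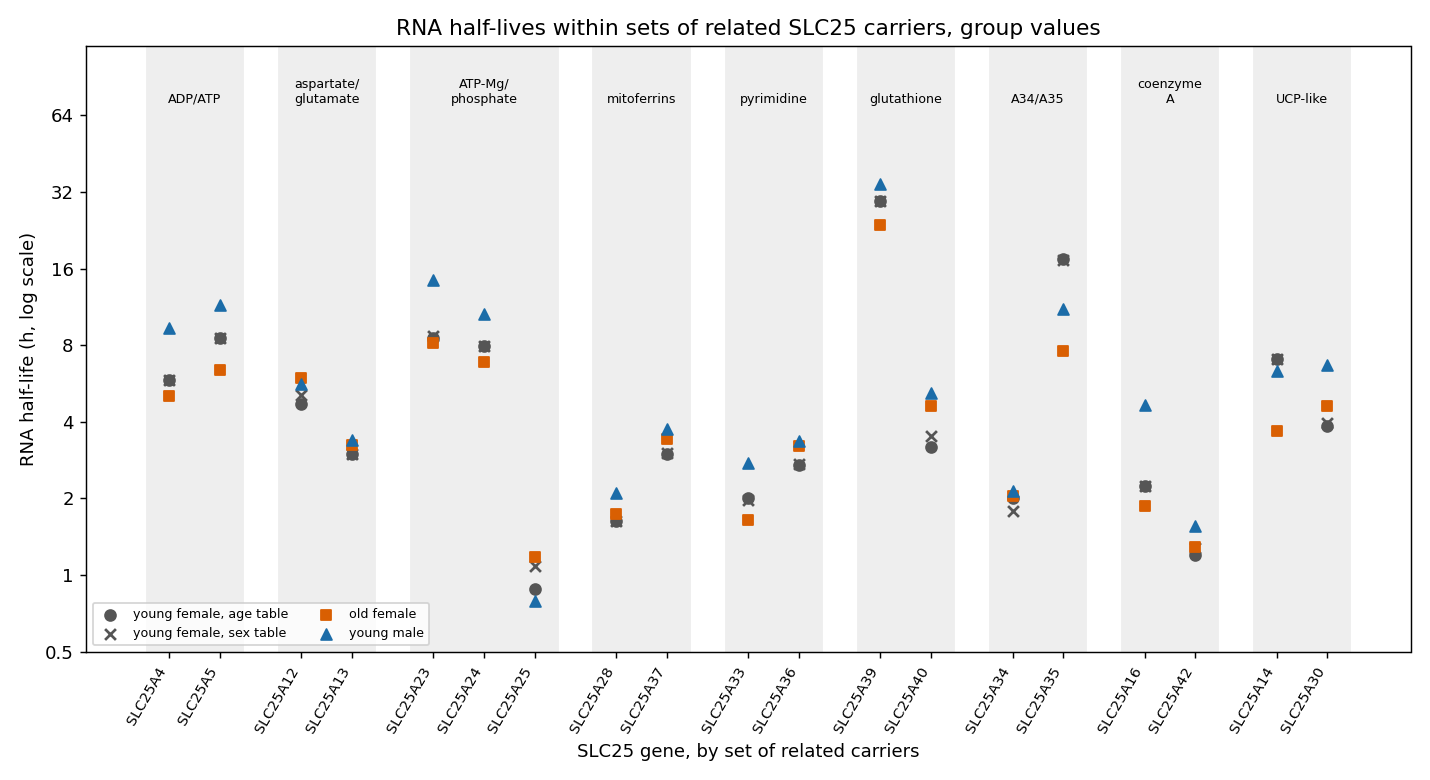
RNA half-life in hours (log axis) of SLC25 genes grouped with their close relatives in shaded bands, 1 point per authors' group value. SLC25A25 lies apart from SLC25A23 and SLC25A24 and SLC25A40 apart from SLC25A39 in every group, while SLC25A14 and SLC25A30 change order between groups.

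Beside other gene families, the carriers resembled mitochondrial ribosomal proteins in half-life more than the respiratory chain they supply. In young female cells of the age table the median was 3.00 h for the carriers, 3.69 h for 64 mitochondrial ribosomal protein genes, 5.32 h for 161 solute carriers outside SLC25, and 15.97 h for 58 nuclear-encoded genes of the respiratory chain. Half-lives over 10 h were listed for 5 of 35 carriers (14.3%), for 21.6% of all genes and for 44 of 58 respiratory chain genes (75.9%). Half-lives under 2 h were listed for 11 carriers (31.4%), 28.99% of all genes, 9 ribosomal protein genes (14.1%) and 0 respiratory chain genes. In young male cells the carriers' share under 2 h was instead below that of all genes, with 6 of 36 (16.7%) against 24.1%. Over 10 h it was 10 of 36 (27.8%) against 29.3%. In young female cells of the age table SLC25A3, SLC25A20 and SLC25A35 lay inside the interquartile range of the respiratory chain genes (10.2 to 21.2 h), SLC25A39 lay above it, and the remaining carriers of the table lay below it. Genes are not replicates, and these differences were not tested.

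**Figure D3:**
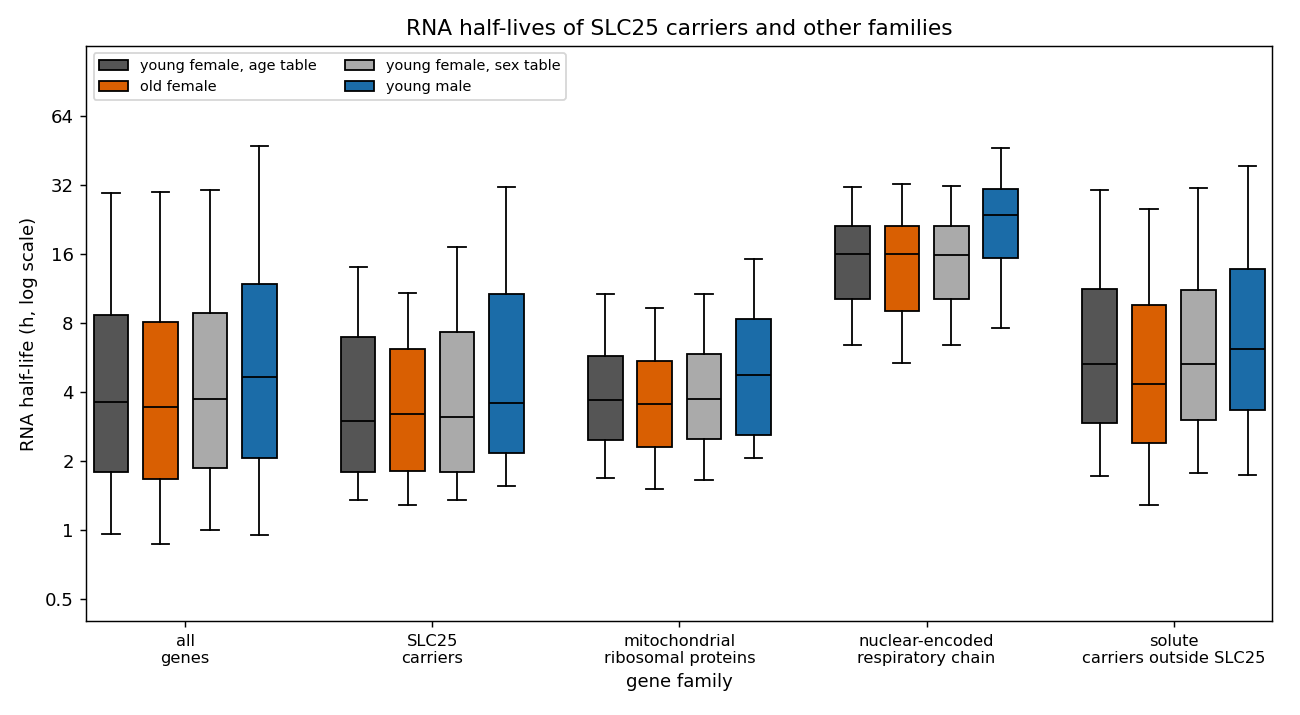
RNA half-life in hours (log axis) for all genes, the SLC25 carriers and 3 other families, each with 4 boxes for the authors' group values. Boxes span the quartiles over genes, lines mark medians, whiskers reach the 5th and 95th percentiles, and the boxes of the carriers overlap those of mitochondrial ribosomal proteins and lie below most of the respiratory chain.

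Old female cells were compared with young female cells first. Few carriers differed by 2-fold or more, the size used as a threshold (absolute log2 ratio of 1). For half-life 1 of 35 members (2.86%) was past it, beside 3.53% of all 11056 genes. For synthesis rate 2 of 35 were past it (5.71%, all genes 7.52%), and for implied level 1 (2.86%, all genes 4.12%). The members' shares were thus near those of all genes. At a threshold of 0.5 the members past it were 3 for half-life (all genes 13.4%), 5 for synthesis rate (all genes 23%) and 6 for level (all genes 15.6%). The members' median log2 ratio of half-life was 0.02 (all genes −0.08), that of synthesis rate 0.03 (all genes 0.08) and that of implied level −0.12 (all genes 0.00). Half-life was longer in old cells for 18 of 35 carriers (51.4%) and for 36.5% of all genes. Synthesis rate was higher for 19 of 35 (all genes 60.2%), and implied level for 14 of 35 (all genes 50.7%). In bulk samples, fewer cells of a type and less RNA per cell cannot be told apart.

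SLC25A22 was the carrier whose level differed past the threshold in old cells. Its synthesis rate was 228 units in young female and 113 in old female cells, a log2 ratio of −1.01, while its half-life was 1.77 and 1.58 h. The implied level was 2.26-fold lower in old cells (log2 −1.18), and this ratio lay at percentile 1.27 of those of all genes. In young male cells the same gene had a synthesis rate of 258 against 217 units and an implied level ratio of −0.02. SLC25A22 brings glutamate into the matrix together with a proton.

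The other genes past the threshold in old cells were SLC25A14 and SLC25A35. SLC25A14 had a synthesis rate of 16.7 units in young female and 40.7 in old female cells (log2 1.28). Its half-life went the other way, from 7.09 to 3.69 h (log2 −0.94), so that its implied level differed by 0.34. SLC25A35 had a half-life of 17.4 h in young female and 7.60 h in old female cells (log2 −1.196), with synthesis rates of 9.53 and 13.2 units and an implied level ratio of −0.72. The reads behind these values are not known. Of the 8 carriers past 2-fold in either comparison, 4 (SLC25A14, SLC25A16, SLC25A27 and SLC25A35) had implied levels among the lowest 10% of a table. Of all 36 carriers 8 had such levels, a ranking that holds only if rates are scaled alike between genes. The share of all genes past 2-fold in any ratio of either comparison was not computed. The other table listed young female half-lives of 7.08 h for SLC25A14 and 17.3 h for SLC25A35, from the same samples and so no independent check.

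Below the threshold, implied levels in old cells were highest relative to young female cells for SLC25A34 (log2 0.65), SLC25A29 (0.54) and SLC25A4 (0.53). They were lowest, after SLC25A22, for SLC25A35 (−0.72) and SLC25A16 (−0.52). For SLC25A4 the synthesis rate was higher in old cells, with 81.0 units in young female and 136 in old female cells, against the shorter half-life already given. Its relative SLC25A5 had 572 and 631 units, and a level ratio of −0.28. Half-life ratios in old cells were highest for SLC25A40 (0.53), SLC25A25 (0.41) and SLC25A12 (0.35). Taken against the repeat estimate in the sex table, these ratios were 0.39 for SLC25A40, 0.11 for SLC25A25 and 0.22 for SLC25A12. SLC25A12 also had a lower synthesis rate (97.1 and 69.2 units), and its level ratio was −0.14. SLC25A3 had a 0.997-fold level, with 1164 units in young female and 1099 in old female cells.

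Young male cells were next set against young female cells, the same 5 samples that serve as the control for old cells. Half-lives were longer in male cells for 28 of 36 carriers (77.8%), as for 77.3% of all 11249 genes, and synthesis rates were lower for 24 of 36 (all genes 71.1%). Implied levels were higher for 20 of 36 (all genes 50.5%). The members' median log2 ratio of half-life was 0.34 (all genes 0.27), that of synthesis rate −0.35 (all genes −0.28) and that of implied level 0.04 (all genes 0.01). Past the threshold were 3 of 36 members for half-life (8.33%, all genes 7.58%), 5 for synthesis rate (13.9%, all genes 12.2%) and 0 for implied level (all genes 4.61%). All 3 were longer-lived (all genes 5.62%) and all 5 had lower synthesis rates (all genes 8.37%). At a threshold of 0.5 the counts were 13 (all genes 31.8%), 13 (all genes 41.1%) and 5 (all genes 25%). Relative to the median of all genes, the members' medians were 0.07 for half-life and −0.07 for synthesis rate. As group values allow no test, there is no p-value or other tool behind this count of 0.

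Each of the 3 genes past the threshold for half-life also had a lower synthesis rate in male cells. SLC25A20 had 10.4 h in young female against 31.6 h in young male cells (log2 1.61), with synthesis rates of 87.1 and 25.4 units (−1.78) and a level ratio of −0.17. The male value lay beyond the 24 h taken as resolvable: at 31.6 h only 8.40% of the RNA would have been made during labelling, against 23.5% at the young female half-life. SLC25A26 had 6.69 and 20.03 h (1.58), with 111 and 47.3 units (−1.23) and a level ratio of 0.35. SLC25A16, a carrier linked to coenzyme A, had 2.23 and 4.67 h (1.06), with 78.1 and 27.5 units (−1.51) and a level ratio of −0.44. After subtraction of the median of all genes, the half-life ratio of SLC25A16 was 0.79 and the synthesis ratio of SLC25A26 was −0.96, both below the threshold.

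Synthesis rates were also lower past the threshold for SLC25A30 and SLC25A27, relatives of the uncoupling proteins first described in kidney and brain. SLC25A30 had 171 units in young female against 71.3 in young male cells (log2 −1.26), with half-lives of 3.97 and 6.69 h and a level ratio of −0.51. SLC25A27 had 87.2 and 39.3 units (−1.15), with 2.00 and 3.00 h and a level ratio of −0.56. Relative to the median of all genes their synthesis ratios were −0.98 and −0.87, below the threshold. The third gene of this class, SLC25A14, went the other way, with 15.99 and 27.2 units (0.77) and a level ratio of 0.60. That synthesis ratio exceeded those of 94.6% of genes in the table.

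**Figure D4:**
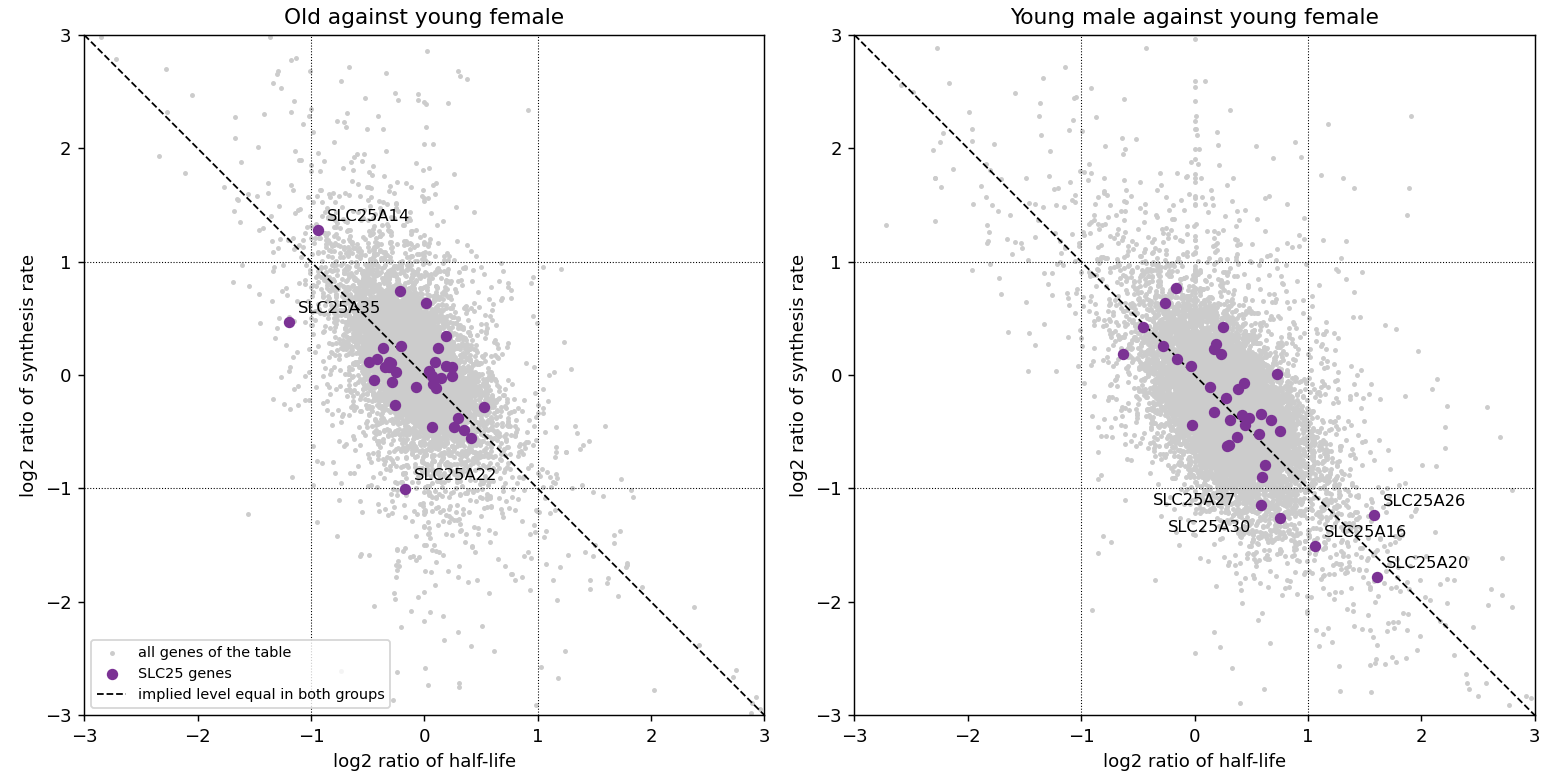
Log2 ratio of synthesis rate against log2 ratio of half-life for old against young female cells (left) and young male against young female cells (right), with SLC25 genes in purple over all genes of the table in grey and dotted lines at 2-fold. Points on the dashed diagonal have equal implied levels in both groups. In the right panel SLC25A16, SLC25A20 and SLC25A26 lie along it at the lower right. Genes with a ratio beyond 3 in either direction (206 in the age table, 198 in the sex table, 0 of them carriers) are outside the frame.

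For most carriers a longer half-life went with a lower synthesis rate, or the reverse. The 2 values are not estimated independently. Between the 2 estimates of the same young female samples, the members' levels differed by a near-constant log2 of −0.0680 to −0.0662. Their half-lives there differed by up to 0.297 (SLC25A25), with synthesis rates of 337 units at 0.882 h and 262 at 1.08 h. The part of this coupling in the opposite signs below was not tested. Their signs were opposite in 23 of 35 members (65.7%) in old cells and in 30 of 36 (83.3%) in male cells, beside 70.4% and 76.2% of all genes. In male cells the members' median absolute log2 ratio was 0.27 in implied level, against 0.40 in half-life and 0.41 in synthesis rate (all genes 0.29, 0.34 and 0.41). In old cells it was 0.24 in implied level, against 0.25 in half-life and 0.12 in synthesis rate (all genes 0.20, 0.19 and 0.23). An implied level ratio within 0.5 of zero was found for 31 of 36 members (86.1%) in male cells and 29 of 35 (82.9%) in old cells, beside 75.02% and 84.4% of all genes.

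Levels in male cells were highest relative to young female cells for SLC25A23 (log2 0.74), SLC25A34 (0.68) and SLC25A14 (0.60), and lowest for SLC25A27 (−0.56), SLC25A30 (−0.51) and SLC25A32 (−0.46). SLC25A23 had nearly equal synthesis rates, 76.3 and 76.8 units, and 8.69 against 14.4 h. Its level ratio exceeded those of 94.3% of genes. SLC25A34 had 49.3 and 66.4 units and 1.79 against 2.13 h. SLC25A13, whose level ratio was 0.46, had 178 and 216 units and 2.99 against 3.41 h.

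The level ratios in male cells were also read by carrier stability, without a test. Ordered by the old female half-life, which is in neither the male nor the female value, 12 carriers under 2 h had a median level ratio of −0.16 (3 of 12 higher), 14 carriers of 2 to 6 h had 0.05 (9 of 14 higher), and 9 carriers over 6 h had 0.35 (7 of 9 higher). The corresponding medians of all genes were −0.29, −0.03 and 0.30, with 20.05%, 46.2% and 82.9% higher. The members thus followed the order of all genes. In the class over 6 h SLC25A23, SLC25A39 (log2 0.42), SLC25A10 (0.40), SLC25A5 (0.37), SLC25A26, SLC25A3 (0.26) and SLC25A24 (0.06) had positive level ratios, and SLC25A35 (−0.45) and SLC25A20 had negative ones. In the class under 2 h the 3 positive ratios were those of SLC25A33 (0.10), SLC25A42 (0.08) and SLC25A17 (0.01), and the 9 negative ones ran from −0.46 for SLC25A32 to −0.02 for SLC25A22. After subtraction of the median of all genes in the same decile of half-life, SLC25A3 (−0.03) and SLC25A39 (−0.01) were near zero, while SLC25A23 (0.55), SLC25A5 (0.26), SLC25A10 (0.22) and SLC25A26 (0.16) stayed positive. SLC25A24 then had −0.13, and SLC25A20 (−0.46) and SLC25A35 (−0.63) were lower than before. Among the short-lived carriers SLC25A42 (0.39), SLC25A33 (0.33) and SLC25A17 (0.31) had the highest values after this step, and SLC25A32 (−0.23) and SLC25A16 (−0.21) the lowest.

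**Figure D5:**
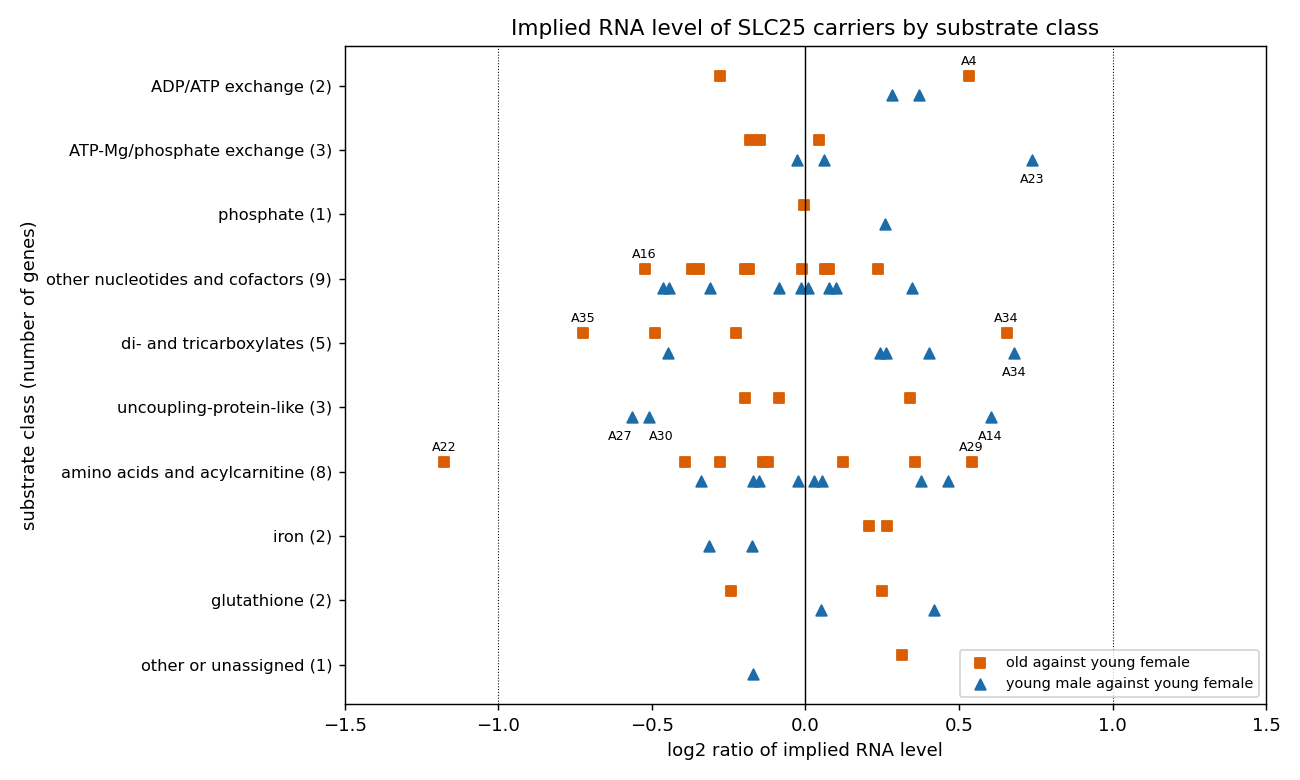
Log2 ratio of implied RNA level of SLC25 genes by substrate class, with squares for old against young female cells, triangles for young male against young female cells, dotted lines at 2-fold and labels (without the prefix SLC25) on genes beyond 0.5 in either direction. SLC25A22 is the square beyond the 2-fold line, and no triangle reaches it.

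Carriers that share a substrate had level ratios of the same sign in some pairs and of opposite sign in others. Both mitoferrins had positive level ratios in old cells (SLC25A28 0.21, SLC25A37 0.27) and negative ones in male cells (−0.17 and −0.31), all below the threshold. The shared sign in male cells was lost after centring within deciles of half-life (SLC25A28 0.05, SLC25A37 −0.24). The ADP/ATP carriers differed in sign in old cells, as given above, and had 0.28 and 0.37 in male cells. The aspartate/glutamate carriers had −0.14 for SLC25A12 and 0.36 for SLC25A13 in old cells. SLC25A39 had −0.24 and SLC25A40 0.25 in the same comparison. Of the 9 cofactor and nucleotide carriers, 3 had higher levels in old cells (all genes 50.7%) and 4 in male cells (all genes 50.5%), with −0.52 for SLC25A16 and −0.35 for SLC25A17 in old cells.

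Proteins that insert the carriers into the inner membrane were examined as the rest of the pathway: the receptor TOMM70 and other parts of the outer membrane translocase, the small TIM chaperones, TIMM22 and AGK. Of 16 genes on this list 11 were listed in each table. In old cells 0 of the 11 were past the threshold for half-life (all genes 3.53%), synthesis rate (all genes 7.52%) or implied level (all genes 4.12%). Their median log2 ratios in that order were 0.03, −0.03 and 0.01. In male cells all 11 had longer half-lives (all genes 77.3%) and lower synthesis rates (all genes 71.1%), with medians of 0.37 and −0.52 (after centring within half-life classes 6 of 11 were longer and 5 of 11 had higher synthesis rates), and 0 were past the threshold for level (all genes 4.61%, median of the list 0.05). Past it was TOMM7 for half-life (all genes 7.58%), with 25.5 and 51.3 h, both beyond the 24 h taken as resolvable. For synthesis rate TIMM8B (178 and 82.3 units, log2 −1.11) and TOMM70 (728 and 363 units, −1.003) were past it (all genes 12.2%). Less the median of all genes (half-life 0.27, synthesis rate −0.28), the ratios of TOMM7 (1.01), TIMM8B and TOMM70 would each lie below the threshold. TOMM70, which receives carrier precursors at the outer membrane, was short-lived at 2.26 h in young female against 3.36 h in young male cells, as was TIMM22, the pore-forming subunit, at 1.58 and 1.64 h.

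The cells were checked against markers. All 8 chondrocyte markers were listed, and their summed implied level was 0.904-fold in old and 2.46-fold in male cells relative to young female cells. In old cells 6 of the 8 were lower and 2 were higher (25%, all genes 50.7% higher). The median of the 8 was 0.715-fold (COL2A1 0.645-fold, ACAN 0.715-fold, COL9A1 0.512-fold, HAPLN1 0.497-fold), while COMP was at 1.77-fold. Of 4 fibroblast or synovial markers 3 were listed (PRG4 was not among them), with a summed level of 0.456-fold in old and 2.45-fold in male cells. Such sums weigh genes by rates whose length scaling is unknown, and single genes differed widely. COL1A1 was at 0.138-fold in old and 18.3-fold in male cells, THY1 at 0.5001- and 2.63-fold, and COL3A1 at 0.461- and 2.12-fold. The male half-lives of COL1A1 (63.7 h), COL3A1 (56.1 h) and THY1 (46.4 h) lay beyond the 24 h taken as resolvable. Of the 8 chondrocyte markers, 2 had male half-lives of 1 to 24 h and 3 (COMP, MATN3 and CNMD) were at the ceiling. The male folds of both lists are uncertain for that reason. Of the macrophage markers CD14 was listed (1 of 4) and of the endothelial markers VWF (1 of 3), with levels of 1.20- and 1.20-fold in old and 1.11- and 1.03-fold in male cells. These shifts move with the groups, and their part in the carriers' values was not tested.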

How the data were processed

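RNA was alkylated with iodoacetamide for 15 min and libraries were poly(A)-selected and strand-specific, per the labels' protocols. The submitters' processing notes name cutadapt 4.5, STAR 2.5.3 and the EquCab3.0 build. The kinetic model, annotation, gene filter and pooling of replicates are not given in the sources used here. The deposited values carry no stated unit and were handled as scores: per the file headers, 1 synthesis rate and 1 half-life per gene and group. There were 0 columns of values per sample and no counts, so depth is unknown and no interval or test was possible. The column headed Young was read as young female because the labels of the young female samples name that table.

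Log2 ratios were computed within a table for all genes (Python 3.11.15, pandas 2.3.3), with no pseudocount or filter, and called at 2-fold. The arithmetic of the calls was tested on simulated data, which says nothing of the error of the deposited values. The values of 1 member enter the counts and medians but are not reported here. Members, substrate classes and lists were chosen with earlier results of these data known. Genes described in full were those past 2-fold, the 3 highest and lowest ratios per comparison and parameter, the 5 longest and 5 shortest half-lives and the sets of relatives. All 36 names matched RefSeq horse symbols (of another assembly, so no coordinates are given), which include 10 further SLC25A symbols that are not analysed here. Alternatives were a threshold of 0.5, half-lives of 1 to 24 h, centring on all genes or within 10 half-life classes, the other table's young female value (rates and levels shifted by the median offset between tables) and removal of half-lives at the ceiling.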

Additional observations from a re-analysis of the deposited data

How the results depend on the processing

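Limits of 1.5 times for a count and 0.05 log2 units for a median ratio were used to judge a move. Of 70 alternative values 53 stayed within these limits and 17 moved. Removal of half-lives at the ceiling could move none of them, because no member reached it. Implied levels against the other table's young female value could hardly move, because the 2 tables' levels differed by a near-constant offset that was removed. These alternatives count among the 53 but say nothing of how firm the results are. At a threshold of 0.5 3 members passed in half-life, 5 in synthesis rate and 6 in level in old cells, and 13, 13 and 5 in male cells. Centring on the median of all genes moved the members' median to 0.0995 (half-life) and −0.0461 (synthesis rate) in old cells and to 0.0679 and −0.0705 in male cells, and left 3 members past the threshold for synthesis rate in male cells, SLC25A16, SLC25A20 and SLC25A14. Centring within half-life classes gave 0.0676 and −0.0397 in old cells and 0.0313 and 0.00588 in male cells. The direction of the family's synthesis median in both comparisons thus depended on the centring. Within half-life classes SLC25A35 (−1.01) passed the threshold for half-life in male cells in place of SLC25A16 (0.92), and SLC25A14 (1.10) and SLC25A45 (1.04) passed for synthesis rate in place of SLC25A27 and SLC25A30. The median half-life in young female cells was 3.11 h in the other table, and that in male cells 3.39 h within 1 to 24 h. The calls of SLC25A35, SLC25A14 and SLC25A22 in old cells held under every alternative run at 2-fold. No paired analysis was possible because the tables hold 1 value per group, and no replicate could be left out for the same reason.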

Other observations

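Carrier proteins of the same superfamily that have other names were not counted as members. UCP2, an uncoupling protein, was past 2-fold for half-life in old cells. Its half-life was 36.2 h in young female and 13.3 h in old female cells (log2 −1.45), the former beyond the 24 h taken as resolvable, and its implied level ratio was −0.99. In male cells it had 22.5 h, a synthesis rate of 26.3 against 13.5 units (0.96) and a level ratio of 0.28. MTCH1 and MTCH2, outer membrane relatives of the carriers, had 1.001- and 0.919-fold levels in old cells and 1.36- and 1.06-fold levels in male cells. UCP1 and UCP3 were not analysed here.

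Transporters of the inner membrane outside the family were described by a list of 15 genes, of which 13 were listed in each table. In male cells all 13 had longer half-lives (all genes 77.3%), or 10 of 13 after centring within deciles of half-life. Past 2-fold were 3 of 13 for half-life (all genes 7.58%) and 3 of 13 for synthesis rate (all genes 12.2%). ABCB10, a haem-linked ABC transporter, had 1.51 h in young female against 5.85 h in young male cells and synthesis rates of 64.7 and 12.0 units. SFXN4 had 11.9 and 38.6 h, the latter beyond 24 h, with 54.3 and 23.5 units, and SFXN2 had 2.15 and 4.47 h with 71.4 and 23.02 units. The implied level ratios of these 3 genes were −0.47, 0.48 and −0.58. In old cells SFXN5 was the 1 gene of 13 past the threshold for synthesis rate (7.69%, all genes 7.52%) and for implied level (7.69%, all genes 4.12%). Its synthesis rate was 97.0 units in young female and 42.1 in old female cells, and its level ratio was −1.06. MCU, the pore of the calcium uniporter, had a level of 0.920-fold in old and 0.975-fold in male cells.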
